A study of Mus musculus with 3 samples.

Results

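Timp3 and Syn3 are 2 protein-coding genes of mouse chromosome 10 that lie on opposite strands, Timp3 wholly inside the span of Syn3, and they are read together here because no source used here gives the counting strand. They are 2 of 24028 gene identifiers, found by Entrez number (21859 for Timp3, 27204 for Syn3), and were chosen by their counts in these same libraries, so their values are a description with no test. The libraries came from skin papillomas, benign tumours of the epidermis, raised in C57BL/6 mice with the carcinogen DMBA and the tumour promoter TPA. Each of 3 genotypes gave 1 library of RNA pooled from 3 tumours. The wild-type mice kept their own galectin-7, a lectin of stratified epithelia, the Lgals7-/- mice lacked it, and the Tg46 mice carried a transgene that makes it constantly from the keratin 14 promoter, active in basal keratinocytes. All 3 groups received the same tumour protocol, and age and sex are not given. With 1 library per genotype no difference has a replicate check, and genotype cannot be told apart from any other difference between the 3 pools.

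Timp3 encodes tissue inhibitor of metalloproteinases 3, a secreted protein that binds the extracellular matrix and blocks matrix metalloproteinases, ADAM sheddases such as ADAM17 and aggrecanases of the ADAMTS group. It also binds the VEGF receptor KDR. Syn3 encodes synapsin III, a phosphoprotein of synaptic vesicles known from neurons, and the synapsin genes each hold a TIMP gene within their span on the other strand, Timp1 in Syn1, Timp4 in Syn2 and Timp3 in Syn3.

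In the GENCODE M21 annotation (GRCm38, the same assembly as mm10) Syn3 covers chr10:86055125-86498896 on the minus strand, 444 kb, with 6 transcripts. Timp3 covers chr10:86300372-86349506 on the plus strand, 49.1 kb, with 4 transcripts, which is 11.1% of the Syn3 span. The main coding transcript of Syn3 (Syn3-201, 14 exons) passes over Timp3 in a single intron of 217 kb, between its exons 6 and 7. Exon 6 begins 2044 bases beyond the end of Timp3, and exon 7 lies 165323 bases before its start. Exons of both genes meet at 1 place, chr10:86347774-86349506, where 1733 bases belong to the last exon of Timp3-201 and to Syn3-203, a transcript annotated as a retained intron. These 1733 bases lie in the 3′ untranslated part of Timp3, from 1875 bases beyond its last coding base, and make up 21.3% of all Timp3 exon bases and 14.1% of those of Syn3. No coding base of either gene is shared. The other 5 Syn3 transcripts have no exon base in common with Timp3, and over the transcripts linked to RefSeq records (Timp3-201, Syn3-201 and Syn3-202) the shared length is 0. Whether the authors' counting had any shared exon therefore depends on the annotation it used, and no source used here names it.

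Coding sequences from either side of the shared stretch are shown because they are read from opposite strands and belong to 1 gene each. The first is the coding part of the last Timp3 exon (exon 5, chr10:86345705-86345902, plus strand, 198 bases), with the stop codon in capitals. The second is exon 6 of Syn3-201 (chr10:86351551-86351640, minus strand, 90 bases), the Syn3 coding exon nearest to Timp3. Both come from the GENCODE M21 transcript sequences and are written 5′ to 3′.
Timp3 exon 5: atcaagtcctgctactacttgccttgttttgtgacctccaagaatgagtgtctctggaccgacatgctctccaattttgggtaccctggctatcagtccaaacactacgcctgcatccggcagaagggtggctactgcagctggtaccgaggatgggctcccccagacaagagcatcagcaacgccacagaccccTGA
Syn3 exon 6: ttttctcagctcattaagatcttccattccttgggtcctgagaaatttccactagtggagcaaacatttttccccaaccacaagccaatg
No stretch of 30 bases was common to any Timp3 and any Syn3 transcript on the same strand. On opposite strands Timp3-201 and Syn3-203 had 1704 such stretches in common, all that a shared length of 1733 bases allows. Besides these, Timp3-204 and Syn3-202 had 4, and the other pairs of transcripts 0.

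**Figure D1:**
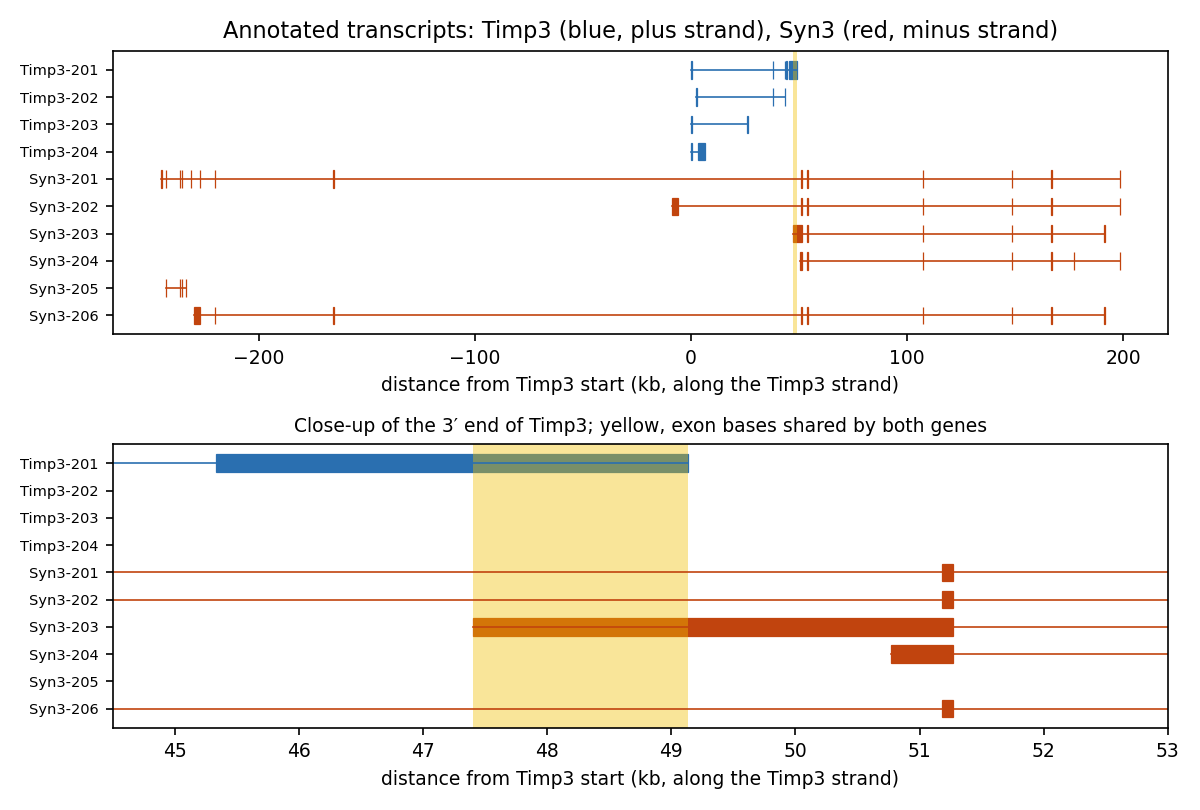
Exons (boxes) and introns (lines) of the annotated transcripts of Timp3 (blue, plus strand) and Syn3 (red, minus strand), by distance in kb from the start of Timp3. The upper panel shows the whole of Syn3, the lower panel the 3′ end of Timp3, where the 1733 shared exon bases (yellow) are covered by Timp3-201 and Syn3-203.

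The libraries were shallow, with 172011 counts for wild-type, 312600 for Lgals7-/- and 354499 for Tg46, and the median identifier held 4, 7 and 7 counts. Levels are in CPM, counts scaled to a common library size with TMM factors, and 3 counts, the limit that a count of 0 allows, correspond to 17.4, 9.11 and 8.95 CPM. Lgals7, the targeted gene, held 0, 2 and 4 counts, too few to check the labels. Each of the 7 keratinocyte markers (Krt5, Krt14, Krt1, Krt10, Krt6a, Trp63 and Dsg3) held counts in every library, 97, 397 and 530 in sum. In wild-type they ranged from 1 to 25 counts each, a thin basis for a check of the tissue. Intervals below cover counting error alone and treat each read as independent. Without molecular identifiers several reads can come from a single molecule, so the intervals may be too narrow. Timp3 and Syn3 both reached the 10 counts needed for a comparison.

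Syn3 was among the most counted genes in all 3 libraries. The wild-type library listed 410 counts, the Lgals7-/- library 1608 and the Tg46 library 878. The Lgals7-/- library was the high one, and the other libraries were close to each other once scaled to library size. By counts its rank was 5 for wild-type, 1 for Lgals7-/- and 9 for Tg46. The level was 2373 CPM for wild-type (95% Poisson interval 2149 to 2614), 4885 for Lgals7-/- (4649 to 5130) and 2620 for Tg46 (2449 to 2799). That is 0.238% of all wild-type counts, 0.514% for Lgals7-/- and 0.248% for Tg46. Per kb of merged exon (12.3 kb) it stood at 193 CPM for wild-type, 398 for Lgals7-/- and 213 for Tg46, which is 33.9, 58.7 and 32.3 times the median gene of the same library. By that scale its rank was 120, 27 and 123, and its level was 2.82, 2.84 and 1.32 times that of the highest keratinocyte marker.

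Timp3 was an ordinary gene by comparison. The wild-type library listed 15 counts, the Lgals7-/- library 18 and the Tg46 library 13. Its level was 86.8 CPM for wild-type (48.6 to 143), 54.7 for Lgals7-/- (32.4 to 86.4) and 38.8 for Tg46 (20.7 to 66.3), highest in wild-type, with intervals that overlap in all 3 libraries. Per kb of merged exon (8.14 kb) it stood at 10.7, 6.71 and 4.76 CPM, against a median gene at 5.69, 6.78 and 6.604. Timp3 thus lay above the median gene per kb in wild-type and close to it or below it in the other libraries.

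**Figure D2:**
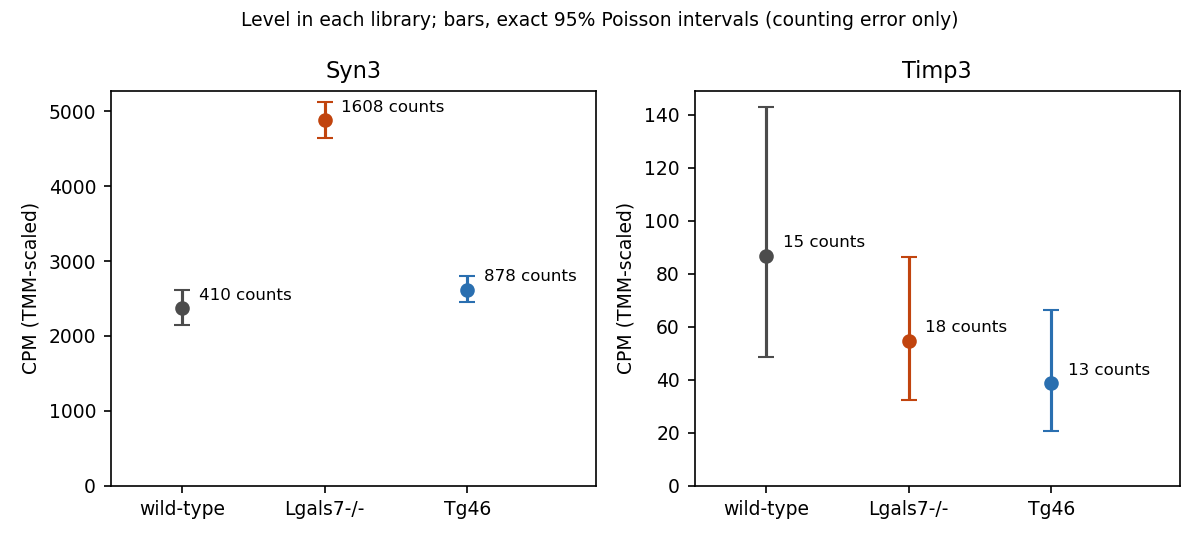
Level of Syn3 (left) and Timp3 (right) in CPM, scaled by TMM factors, in the 1 library of each genotype, on separate linear axes from 0; bars are exact 95% Poisson intervals. Syn3 stands at 4885 CPM in Lgals7-/- against 2373 and 2620 in the others, and the 3 Timp3 intervals overlap.

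Nearly all counts of the pair were listed at Syn3. Timp3 took 3.53% of the summed counts in wild-type (exact Clopper-Pearson 95% interval 1.99 to 5.75), 1.11% in Lgals7-/- (0.657 to 1.74) and 1.46% in Tg46 (0.779 to 2.48). The wild-type interval lay above that of Lgals7-/- and overlapped that of Tg46. Per kb of exon, Syn3 stood 18.1 times above Timp3 for wild-type, 59.2 times for Lgals7-/- and 44.8 times for Tg46. How many of the reads listed at Syn3 came from either strand cannot be told from these counts. A difference below may reflect more cells of a type or more RNA per cell, and in bulk tissue these cannot be told apart.

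Between libraries, the Lgals7-/- level of Syn3 was above that of wild-type, and Tg46 and wild-type were close to even, while both Timp3 ratios to wild-type were below 1 and neither was called. A call needed a ratio of 2-fold or more with an exact 95% interval that excluded 1, so a call compares 2 libraries and not genotypes. Syn3 in Lgals7-/- was 2.06-fold the wild-type level (1.85 to 2.300) and was called higher, as were 13.3% of the 12940 genes tested. Its log2 ratio of 1.04 lay above 75.7% of them. In Tg46 over wild-type it was 1.103-fold (0.981 to 1.24), with an interval that holds 1. In Tg46 it was 1.86-fold below Lgals7-/- (1.72 to 2.03), an interval that excludes 1 with a ratio short of 2-fold, and with total counts in place of TMM factors the ratio of 0.482 passed the rule. Both comparisons with wild-type share that library, and both comparisons with Lgals7-/- share that one.

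Timp3 in Lgals7-/- was 1.596-fold below wild-type (0.745 to 3.34). In Tg46 it was 2.23-fold below wild-type (0.993 to 5.11), just outside the rule because the interval reaches 1. DESeq2 size factors (ratio 0.428) and total counts (0.423) brought it inside. With TMM factors 13.9% of all genes were called lower there. Against Lgals7-/- it was 1.395-fold lower in Tg46 (0.653 to 3.13). At 13 to 18 counts a 2-fold difference in Timp3 is at the edge of what these libraries can show.

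Read as 1 unit, the summed counts of both genes followed Syn3, with 425 for wild-type, 1626 for Lgals7-/- and 891 for Tg46. The Lgals7-/- sum was 2.01-fold that of wild-type (1.804 to 2.24), right at the 2-fold threshold. DESeq2 size factors (1.95) and 5 added counts (1.99) took it below. It was 1.08-fold in Tg46 over wild-type (0.962 to 1.22) and 1.86-fold lower in Tg46 than in Lgals7-/- (1.71 to 2.02), with a ratio of 0.483 on total counts, past the rule.

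**Figure D3:**
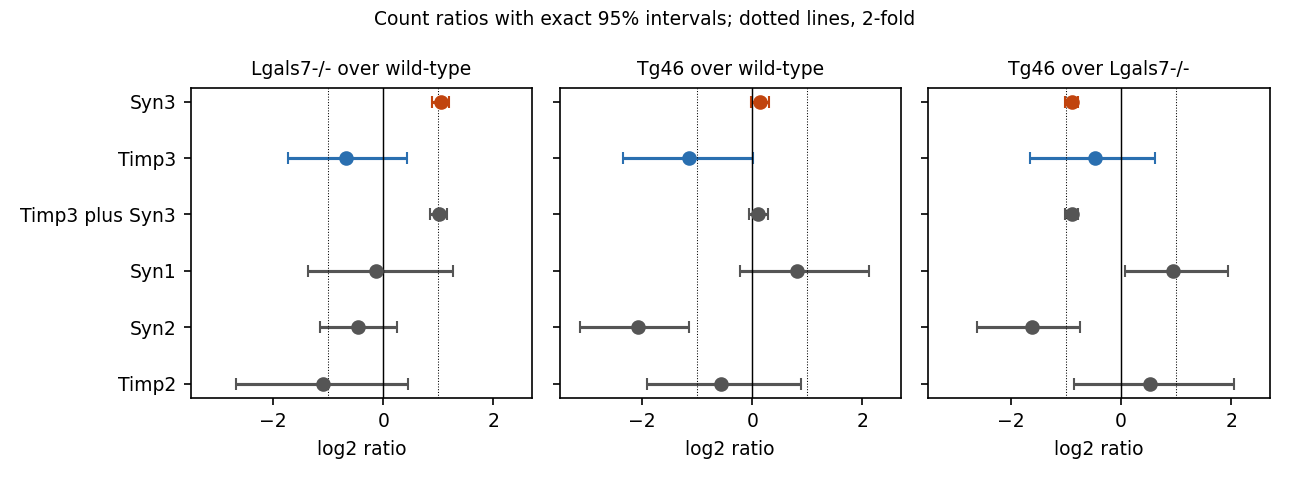
Log2 count ratios between libraries for the TIMP and synapsin genes that reached 10 counts in a library, and for the sum of Timp3 and Syn3; bars are exact 95% intervals and dotted lines mark 2-fold. Syn3 and the sum lie near the 2-fold line in Lgals7-/- over wild-type, and Syn2 lies below it in both Tg46 panels.

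Over all 12940 genes tested, 15.4% had a lower ratio of Tg46 over Lgals7-/- than Syn3, and 50.9% a lower ratio of Tg46 over wild-type (median log2 ratio 0.11, against 0.14 for Syn3). A further set was the 86 genes with at least 300 counts in 1 library, a minimum chosen after the values were seen. That minimum applies to unscaled counts, so it favours genes high in Tg46, the deepest library. The medians and places among the 86 depend on it. Over these 86 the median log2 ratio of Tg46 over Lgals7-/- was 0.95, against -0.03 for all genes tested, and Syn3 stood at -0.90. Of the 86, only Tpgs2 (3.199-fold lower) and Tchh (5.84-fold lower), the hair follicle protein trichohyalin, lay below it. In Lgals7-/- over wild-type 7 of these 86 genes lay above Syn3, among them Tchh at 3.93-fold and Rptn, a cornified cell protein, at 2.600-fold. In Tg46 over wild-type 74 of the 86 lay above it, with a median log2 ratio of 0.80.

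The pattern of the other synapsin genes was not that of Syn3. Syn1, a neuronal synapsin, held 9 wild-type counts, 16 from Lgals7-/- and 32 from Tg46, highest in Tg46. Its ratios were 0.912-fold in Lgals7-/- over wild-type (0.388 to 2.396), 1.76-fold in Tg46 over wild-type (0.855 to 4.37) and 1.93-fold in Tg46 over Lgals7-/- (1.05 to 3.83), and none was called. Syn2 held 31 wild-type counts, 43 from Lgals7-/- and 14 from Tg46, lowest in Tg46. It was called lower there, 4.21-fold against wild-type (2.22 to 8.74) and 3.05-fold against Lgals7-/- (1.68 to 6.19), where 7.73% of all genes were called lower. Per kb of exon Syn3 was above both in every library, 7.57 times the higher of them in wild-type, 21.4 times in Lgals7-/- and 7.37 times in Tg46.

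The other TIMP genes had few counts. Timp2, a broad inhibitor that also takes part in the activation of MMP2, held 9 counts, then 8 for Lgals7-/- and 12 for Tg46, and no ratio was called. Timp1, an inhibitor induced by inflammation and growth factors, held 0, 2 and 1, and Timp4 held 2, 3 and 4, so neither reached the 10 counts needed for a comparison. Of the 4 TIMP genes 2 passed this filter. Timp3 had the most counts of the 4 in each library, but per kb of exon Timp2 stood above it in wild-type (13.4 against 10.7 CPM) and in Tg46 (9.19 against 4.76), and Timp1 held 6.84 against 6.71 in Lgals7-/- on 2 counts. The counting intervals of these levels overlap.

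In the other synapsin loci the host also held more counts than the TIMP gene inside it, at far lower totals. Timp1 lies in Syn1 with no shared exon base, and took 0 of 9 wild-type counts, 2 of 18 for Lgals7-/- and 1 of 33 for Tg46. Timp4 lies in Syn2 with 90 shared exon bases, all of them coding in Syn2, and took 2 of 33, 3 of 46 and 4 of 18. The Timp4 share of 22.2% in Tg46 (6.41 to 47.6) lay above the Timp3 share of 1.46% there.

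Annotated pairs of protein-coding genes, of which 1 lies inside the other on the opposite strand, numbered 358 with both in the count table. Among them Timp3 and Syn3, a pair chosen by its counts, held the most counts in each library. In Tg46 the next pair was close, with 886 counts against 891. At least 100 counts were reached by 8 wild-type pairs, 26 for Lgals7-/- and 43 for Tg46. In those pairs the nested gene took a median of 75.6%, 53.9% and 52.2% of the counts, against 3.53%, 1.11% and 1.46% at Timp3. The shares were widely spread, with quartiles of 4.65% and 90.9%, 14.1% and 79.2%, and 6.22% and 78.95%. A share lower than that of Timp3 was seen in 1, 1 and 3 pairs, in wild-type and Lgals7-/- at Gpr21 inside Strbp. A host with several nested genes enters once for each, so these pairs are not all separate loci. Some of the lower pairs in Tg46 share a host. Over all 1355 opposite-strand pairs with a shared exon base, 66, 162 and 258 reached 100 counts, and the gene with fewer counts took a median of 11.9%, 15.9% and 15.7%. In 9, 6 and 11 of these the split was more uneven than at Timp3 and Syn3.

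Of the annotated neighbours of Syn3, those nearest to it held few counts. Fbxo7, a ubiquitin ligase subunit 3.25 kb away, held 4 counts, again 4 for Lgals7-/- and 7 for Tg46. Bpifc held 6, 16 and 25 and Rtcb, the tRNA ligase, 2, 6 and 2. Inside Syn3, 4930486F22Rik held 4, 1 and 5. On the far side, 187 kb away, 1810014B01Rik, annotated as a transcribed pseudogene, held 456, 715 and 2487, more than Syn3 in wild-type and Tg46. Its span overlaps one end of the chaperone gene Hsp90b1 on the other strand, which held 41, 50 and 81. In Tg46 1810014B01Rik was 3.41-fold above Lgals7-/- (3.14 to 3.72), the opposite direction to Syn3. Ttc41, beyond it, held 2, 28 and 24.

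Genes of the synaptic vesicle and of transmitter release did not stand near Syn3 in level. Of 18 genes 15 reached 10 counts. Together the 18 held 164 wild-type counts, 305 from Lgals7-/- and 369 from Tg46, and 4, 0 and 0 of them were at 0. Per kb of exon Syn3 stood at 8.28, 21.8 and 11.4 times the highest of them. In Lgals7-/- over wild-type 2 of the 15 were called higher and 2 lower (13.3% and 13.7% of all genes), so the calls were near those shares. The median log2 ratio was 0.21 against 0.10 for all genes. Vamp2, the vesicle SNARE, held 12 against 0 (at least 2.100-fold higher with 3 counts in place of 0, exact interval from 1.46), and Cplx2, a complexin that clamps release, held 23 against 1 (8.22-fold, 1.96 to 497). Pclo, an active zone scaffold, was 2.37-fold lower (1.41 to 4.06). In Tg46 over wild-type 4 were called higher (13.7% of all genes) and 2 lower, with a median of 0.32 against 0.11. Rab3a, a vesicle GTPase, held 14 against 0 (at least 2.41-fold higher, exact interval from 1.71), and Vamp2 was at least 2.06-fold higher (from 1.43). Cplx2 was 10.1-fold higher (2.48 to 611), and Syp, the vesicle protein synaptophysin, 3.09-fold lower (1.497 to 6.81). In Tg46 over Lgals7-/- 1 of the 15 was called higher and 0 lower (8.43% and 7.73% of all genes).

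Summed markers of nerve tissue were lowest in the library where Syn3 was highest. The 10 neuron markers summed to 336 CPM for wild-type, 222 for Lgals7-/- and 400 for Tg46. Rbfox3, the neuronal nuclear antigen, held 0, 12 and 21 counts and Gap43, a growth cone protein, 0, 3 and 4, and these were the 2 markers at 0 in wild-type. Of the 6 neuron markers tested, Rbfox3 was called higher for Lgals7-/- over wild-type (at least 2.100-fold, exact interval from 1.46), 5 were neither and 0 lower, where 13.3% of all genes were called higher. In Tg46 over wild-type 2 of the 6 were higher and 0 lower (13.7% and 13.9% of all genes), and in Tg46 over Lgals7-/- 3 were higher and 1 lower (8.43% and 7.73%). The part of nerve tissue in the Syn3 values was not tested. The 8 Schwann and glial cell markers summed to 434, 313 and 361 CPM. Among them Cdh19 was at 0 in Lgals7-/-.

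Hair follicle markers, like Syn3, had their highest sum in Lgals7-/-, but their lowest in Tg46. The 6 genes summed to 1262 CPM for wild-type, 4250 for Lgals7-/- and 779 for Tg46, most of it from Tchh, and none was at 0. Without Tchh the other 5 summed to 336, 598 and 155 CPM, again highest in Lgals7-/-. In Lgals7-/- over wild-type 3 of the 6 were called higher and 0 lower (13.3% and 13.7% of all genes), and in Tg46 over Lgals7-/- 4 were lower and 0 higher (7.73% and 8.43%). The part of hair follicle tissue in the Syn3 values was not tested. The 7 keratinocyte markers had another order, at 561, 1206 and 1581 CPM, highest in Tg46. Still, in Lgals7-/- over wild-type 4 of the 7 were called higher and 0 lower (13.3% and 13.7% of all genes). Their median log2 ratio there was 1.06, against 1.35 for the hair follicle list, 1.04 for Syn3 and 0.10 for all genes. In Tg46 over wild-type 6 were higher and 0 lower (13.7% and 13.9%), and in Tg46 over Lgals7-/- 1 was higher and 0 lower (8.43% and 7.73%). Fibroblast markers, 9 genes of the cells known as a source of TIMP3 in connective tissue, summed to 469, 474 and 534 CPM, with Lum and Dpt at 0 in wild-type. Endothelial and mural markers (7 genes, Rgs5 at 0 in wild-type) summed to 243, 316 and 283 CPM, the same order as Syn3. Of these, 0 of 6 tested were called in any comparison, where 7.73% to 13.9% of all genes were called in a given direction. Leukocyte markers (6 genes, none at 0) summed to 318, 343 and 277 CPM, also highest in Lgals7-/-. That order rests on Lyz2, a lysozyme of myeloid cells with 5, 39 and 6 counts, since the other 5 summed to 289, 225 and 260 CPM, lowest in Lgals7-/-. The part of these cells in the Syn3 and Timp3 values was not tested.

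**Figure D4:**
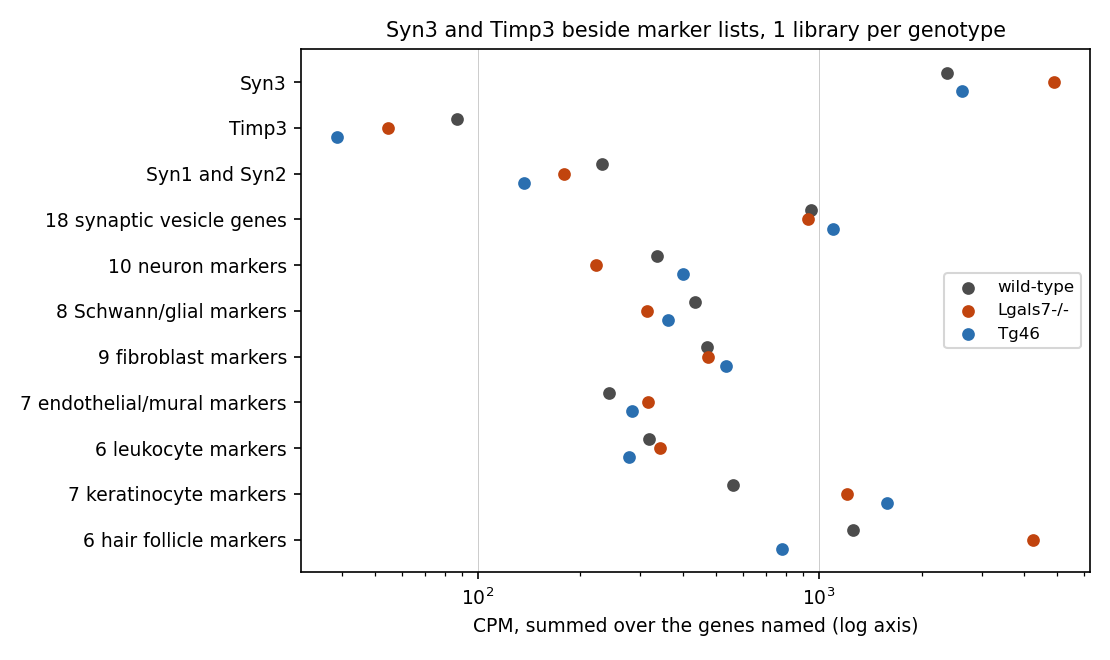
CPM of Syn3 and Timp3 and summed CPM of marker lists (log axis), 1 point per library; levels are to be compared within a row, since rows differ in gene number and length. The Lgals7-/- point is the highest of its row for Syn3, hair follicle, endothelial and leukocyte markers, and Timp3 is lowest in Tg46.

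The metalloproteinases that TIMPs inhibit were thinly covered. Of 24, 19 reached 10 counts, and all 24 summed to 1320 CPM for wild-type, 1075 for Lgals7-/- and 1044 for Tg46. In Lgals7-/- over wild-type 5 of the 19 were called lower and 1 higher, where 13.7% and 13.3% of all genes were, and the median log2 ratio was 0.29 against 0.10 for all genes. Mmp1a, a collagenase, held 2 counts against 17 (13.3-fold lower, 3.84 to 145), and Adamts5, an aggrecanase that TIMP3 blocks, held 5 against 16 (5.72-fold lower, 2.13 to 21.3). Mmp14, a membrane-type protease, was 3.29-fold lower (1.03 to 13.03). Mmp10, a stromelysin, held 10 against 0 (at least 1.75-fold higher, exact interval from 1.18). Its call rests on the ratio with 0.5 counts added, 11.02.

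Adam17, the sheddase most tied to TIMP3, held 40 counts for wild-type, 32 for Lgals7-/- and 32 for Tg46, highest in wild-type as Timp3 was on the CPM scale. It was called lower in Lgals7-/- (2.37-fold, 1.46 to 3.92) and in Tg46 (2.42-fold, 1.49 to 3.99) against the same wild-type library. In Tg46 over wild-type 3 of the 19 were called lower, a share near the 13.9% of all genes, and 1 higher (13.7% of all genes), and the median was -0.34 against 0.11. There Mmp1a was 6.17-fold lower (2.34 to 22.9), Adamts5 3.77-fold lower (1.57 to 10.5) and Mmp10 at least 1.55-fold higher (exact interval from 1.02, ratio with 0.5 counts added 9.795). In Tg46 over Lgals7-/- 0 were higher (8.43% of all genes) and 2 lower (7.73%), Mmp1b at 4.800-fold (1.55 to 29.1) and the neutrophil collagenase Mmp8 at 2.74-fold (1.09 to 8.94).

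Partners of TIMP3 and genes of the ADAM17 pathway gave 14 tested of 16. Efemp1, a matrix fibulin that binds TIMP3, held 16 wild-type counts, 0 from Lgals7-/- and 3 from Tg46. It was at least 10.2-fold lower in Lgals7-/- (exact interval from 7.35) and 9.14-fold lower in Tg46 (2.96 to 55.4) than in wild-type. Lrp1, the endocytic receptor that clears TIMP3, held 14, 67 and 55 counts and was called higher in Lgals7-/- (2.44-fold, 1.398 to 4.84). Kdr held 12, 24 and 22 and was called in no comparison. Hbegf and Areg, EGF receptor ligands released by ADAM17, were highest in Tg46. Hbegf held 1, 9 and 19 counts and was 6.702-fold higher in Tg46 than in wild-type (1.56 to 407). Areg held 3, 5 and 18 and was 3.304-fold higher in Tg46 than in Lgals7-/- (1.27 to 12.2). Notch1, an ADAM substrate, was 2.205-fold higher in Lgals7-/- than in wild-type (1.004 to 6.25). In all, 2 of the 14 were called higher and 1 lower for Lgals7-/- over wild-type (median log2 ratio 0.03, against 0.10 for all genes), where 13.3% and 13.7% of all genes were called. For Tg46 the calls were 1 higher and 1 lower against wild-type (median 0.39, against 0.11), where 13.7% and 13.9% of all genes were. Against Lgals7-/- they were 1 higher and 0 lower (median 0.44, against -0.03), where 8.43% and 7.73% of all genes were.

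The genes nearest to Syn3 in pattern, by the Euclidean distance between centred log2 CPM over 3 libraries, included Mfn2, Irgq, Cacna1e and Usp8, out of 1076 with at least 100 counts in all. Mfn2, a mitochondrial fusion protein, was at a distance of 0.0332 with 17 wild-type counts, 68 from Lgals7-/- and 38 from Tg46. Usp8, a deubiquitinase, held 18, 61 and 42 at 0.246. With a minimum of 300 counts 5 other genes were nearest, Ppifos first at 0.322.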

How the data were processed

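RNA of 3 pooled papillomas per genotype was extracted with TRIzol and RNeasy columns and made into 1 library each with an Illumina kit (labels' protocols). The authors deposited raw read counts per Entrez gene identifier, and the submitters' processing notes name mm10. No source used here gives the aligner, counter, annotation or use of strand. Symbols came from RefSeq (23968 identifiers matched), and positions, exon lengths and sequences from GENCODE M21. Library sizes were adjusted by TMM factors from edgeR 4.0.16 (1.004, 1.05 and 0.945 for wild-type, Lgals7-/- and Tg46), in R 4.3.3 with DESeq2 1.42.0 for alternative size factors. A gene was compared where any library reached 10 counts, with 0.5 counts added to each library in a ratio. Intervals are exact Clopper-Pearson intervals of the pair of counts. For 0 counts in one library, 3 were put in its place, which gives a lower bound of the fold that takes the other count as exact; the start of the exact interval, which does not, is printed beside it. No model was fitted and no p-value is given. Interval and call code was tested on simulated data. Python 3.11.15, numpy 2.4.6, scipy 1.17.1, pandas 2.3.3 and matplotlib 3.10.9 were used. Named genes were both members, the other TIMP and synapsin genes, Lgals7, the 3 neighbours on each side, up to 4 called members per list with the largest log2 ratio, and the 5 genes nearest in pattern; Kdr, Gpr21, Strbp, Tpgs2, Tchh and Rptn as abundant genes, Ppifos, the minima of 300 and 100 counts for abundant genes and gene pairs, and the hair follicle and leukocyte sums without Tchh and Lyz2 were chosen after the values were seen. The members and lists were chosen with earlier results of these data known. Some genes that the naming rule selects are not reported here.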

Additional observations from a re-analysis of the deposited data

How the results depend on the processing

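No paired analysis was possible because a genotype is a single library here. Of 36 recomputed ratios of Syn3, Timp3 and their sum, 30 stayed within their counting interval and 0 called ratios reversed. With upper-quartile factors the ratios of Syn3 and of the sum were 2.39 and 2.33 in Lgals7-/- over wild-type and 1.303 and 1.28 in Tg46 over wild-type. With total counts they were 0.482 and 0.483 in Tg46 over Lgals7-/-.

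Levels per kb scale with the length used. In wild-type, Lgals7-/- and Tg46, Syn3 stood at 497, 1023 and 549 CPM per kb of its longest transcript. With the shared exon bases left out of the length and all counts kept, Syn3 stood at 225, 463 and 248. Timp3 stood at 18.4, 11.6 and 8.21 per kb of its longest transcript. Ranked per kb instead of by counts, Syn3 was 120, 27 and 123, and Timp3 was 7318, 11958 and 15030.

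With 2-fold alone, 3269, 3307 and 1808 genes were higher for Lgals7-/- and for Tg46, both against wild-type, and for Tg46 against Lgals7-/-, and 1653 lower in the last, against 1715, 1768, 1091 and 1000 with the interval. With 5 counts added 584 and 658 were higher than wild-type. Of 72 recomputed list medians 64 moved by less than 0.5 in log2 with their sign kept, 2 moved further and 6 reversed. The TIMP list in Tg46 over Lgals7-/- became -0.07 with no filter and -0.13 on total counts. The Schwann and glial list in Lgals7-/- over wild-type became -0.03 with no filter, and the fibroblast list 0.29 there. On total counts the fibroblast list was -0.07 in Tg46 over wild-type and -0.07 in Tg46 over Lgals7-/-. The cause was not tested. Of the 5 genes nearest to Syn3, 0 were shared with those at the higher minimum.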
